A study of Mus musculus with 6 samples.

Results

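Cytosolic sulfotransferases are the soluble enzymes that attach sulfate to small molecules. The 10 genes described here (Sult1a1, Sult1b1, Sult1c2, Sult1d1, Sult1e1, Sult2a1, Sult2a2, Sult2a8, Sult3a1 and Sult5a1) were taken by gene symbol and the protein-coding biotype from a table of 54777 genes. To examine what happens to liver transcripts when hepatocytes lose Wtap, which encodes a regulatory part of the RNA m6A methyltransferase, livers of 3 Wtapflox/flox and 3 Wtap-HKO mice were analysed by bulk RNA sequencing. All mice were 8-week-old C57BL/6 males (C57BL/6J background in the study's methods) on normal chow, and all carried 2 floxed Wtap alleles with loxP sites around exon 4. The Wtap-HKO mice carried in addition 1 copy of Alb-Cre, a Cre recombinase under the albumin promoter that acts in hepatocytes, while the controls had no Cre. Whole liver was sequenced, so liver cells other than hepatocytes are in the libraries too.

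In the liver, cytosolic sulfotransferases move a sulfonate group from the donor PAPS (3'-phosphoadenosine 5'-phosphosulfate) to phenols, steroids, bile acids and drugs. The products dissolve better in water and are more easily excreted. The SULT1 enzymes act mainly on phenols, thyroid hormones and oestrogens, and the SULT2 enzymes act on hydroxysteroids and bile acids. In mouse liver several family members are known for higher levels in females than in males.

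The libraries held between 15559250 and 18510477 reads assigned to genes, rebuilt from the deposited FPKM (fragments per kilobase of transcript, scaled to sequencing depth). Wtap itself stood at 5.61 ± 0.317 FPKM in Wtapflox/flox and 6.02 ± 0.368 FPKM in Wtap-HKO (SD, n = 3 each), an exact two-sided permutation p of 0.3, where the smallest p for 3 against 3 is 0.1. On the TPM scale, on which every library has the same sum, Wtap was called higher in Wtap-HKO (log2 fold change 0.68, adjusted p = 0.0015 by limma), where the median of all genes tested was 0.56. A value over the whole gene does not resolve the loss of exon 4, so it checks neither the deletion nor the labels, and group names below are those of the labels. The labelled sex was checked as well, and Xist, the RNA that coats the inactive X chromosome of females, was at 0.0197 FPKM or less in all 6 libraries while the Y-linked Ddx3y was at 11.5 FPKM or more. Wtapflox/flox replicate 1 stood apart from its group in the summed level of a list of 34 male-predominant liver genes, at 46493 FPKM against 21382 and 21395 FPKM in replicates 2 and 3. The listed Mup7 (9366 against 1512 and 735 FPKM) and Mup12 (7339 against 686 and 745 FPKM) showed such a gap. Slco1a1 (137 against 138 and 142 FPKM) did not, so the sum does not stand for every male-predominant gene. The 8 member calls given below were all kept without Wtapflox/flox replicate 1. For Sult2a1 and Sult2a2, which had no read in any control library, leaving out a control could not change the log2 fold change.

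The Sult2a genes were compared first by sequence, because near-identical copies limit what a count can say about each of them. Over their aligned coding bases Sult2a1 and Sult2a2 were 97.9% identical (573 of 585 bases), whereas Sult2a2 and Sult2a8 were 75.2% identical. The Sult2a2 model is short, with 585 coding bases in 4 exons against 858 in 6 for Sult2a1, so the identity covers only part of Sult2a1. The gene lengths behind their FPKM were 741 and 1020 bases. The same 60 bases (301 to 360 of each coding sequence, from GENCODE M21 transcripts on GRCm38) are shown for 4 genes of chromosome 7, with the 13 columns at which any of them differs in capitals.
Sult2a2: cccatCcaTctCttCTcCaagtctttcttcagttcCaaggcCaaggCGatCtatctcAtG
Sult2a1: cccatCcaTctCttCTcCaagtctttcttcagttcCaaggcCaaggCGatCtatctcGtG
Sult2a5: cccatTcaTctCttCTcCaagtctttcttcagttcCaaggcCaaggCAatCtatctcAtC
Sult2a8: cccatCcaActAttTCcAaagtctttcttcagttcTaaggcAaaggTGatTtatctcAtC
In this window Sult2a1 differed from Sult2a2 at 1 base, Sult2a5 at 3 bases and Sult2a8 at 10 bases. Of the 100-base stretches of the Sult2a2 coding sequence, 13.8% (67 of 486) also occur in another annotated gene, and of those of Sult2a1 6.9% (52 of 759). A read that lies wholly in such a stretch cannot be placed by its own bases, although the other end of its fragment may place it. How such reads were counted is not given, so single values of Sult2a1 and Sult2a2 are uncertain. Sult1a1 shared 3.5% of its stretches with Gm6939, and the coding sequences of the other 7 members, Sult2a8 included, shared none.

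In the liver of Wtapflox/flox mice a pair of genes made up most of the family's transcripts. Sult2a8, which encodes a bile acid sulfotransferase of mouse liver, was at 292, 240 and 302 FPKM. Sult1a1, the main phenol sulfotransferase, was at 173, 204 and 249 FPKM, so the levels of both genes overlapped. Sult1d1 came next at 51.3 ± 5.69 FPKM, followed by Sult1b1 at 8.45 ± 1.03 FPKM, and each of these was below the gene before it in every library. Sult5a1 (3.17 ± 1.23 FPKM) and Sult1c2 (2.08 ± 0.517 FPKM) overlapped. Sult1e1 averaged 0.191 ± 0.2 FPKM, and Sult2a1, Sult2a2 and Sult3a1 had no read in any Wtapflox/flox library.

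**Figure D1:**
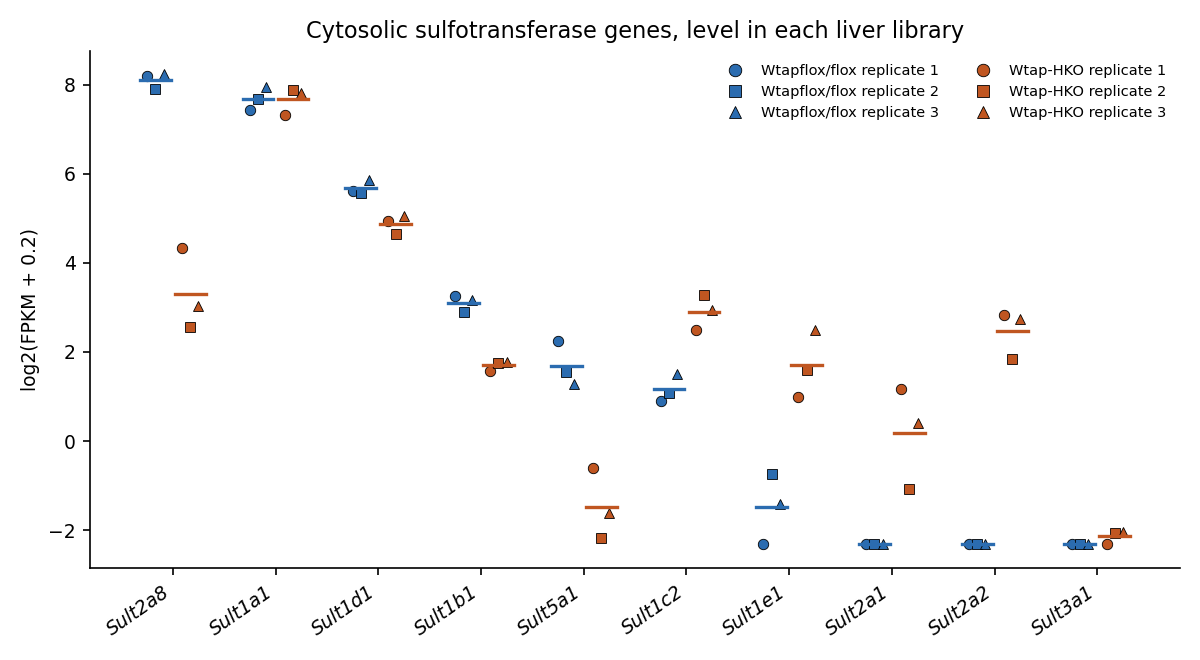
Level of each of the 10 genes as log2(FPKM + 0.2) in the 3 Wtapflox/flox libraries (blue) and the 3 Wtap-HKO libraries (orange), with 1 symbol per library, the line at the group mean, and genes ordered by their mean in Wtapflox/flox. Sult2a8 falls from 278 to 11.2 FPKM, Sult1a1 is at 209 and 207 FPKM, and Sult2a1 and Sult2a2 leave the floor of the scale in Wtap-HKO alone.

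As shown in the plot of levels by library, the order was different in Wtap-HKO. Sult1a1 had the highest level with 207 ± 41.7 FPKM, and Sult1d1 followed at 29.5 ± 4.09 FPKM. Sult2a8 came next at 11.2 ± 7.64 FPKM, where its lowest library was below the highest of Sult1c2. From Sult1c2 (7.48 ± 2.06 FPKM) through Sult2a2 (5.59 ± 1.93 FPKM) and Sult1e1 (3.37 ± 1.88 FPKM) to Sult1b1 (3.06 ± 0.233 FPKM) each gene overlapped with the next. Sult2a1 averaged 1.15 ± 0.892 FPKM, Sult5a1 0.2 ± 0.226 FPKM and Sult3a1 0.0278 ± 0.0242 FPKM.

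The comparison between groups was made by limma on log2(FPKM + 0.2), and a gene was called at a Benjamini-Hochberg adjusted p under 0.05 over all 16547 genes whose mean level reached 0.2 FPKM. Among the 10 members, 9 passed this minimum. Sult1c2, Sult1e1, Sult2a1 and Sult2a2 were called higher in Wtap-HKO, and Sult1b1, Sult1d1, Sult2a8 and Sult5a1 were called lower. Sult1a1 was not called, and Sult3a1 was not tested. Over all genes tested 19.5% were called higher and 20.7% lower, and the groups did not overlap in 54.2%, against 8 of the 9 tested members. Sult1e1, Sult2a1 and Sult2a2 passed the minimum through their Wtap-HKO level alone and therefore had to differ, so these counts describe the members and are no measure of how far the family as a whole changed. The 6 that passed on their Wtapflox/flox level split into 1 called higher, 4 called lower and 1 not called.

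Among the members Sult2a8 (ENSMUSG00000030378) had the largest fall. Its 292, 240 and 302 FPKM in Wtapflox/flox stood against 19.9, 5.70 and 8.01 FPKM in Wtap-HKO, from 37304 reads and 2301 reads over the group. The groups were far apart, and within Wtap-HKO replicate 1 was 3.5 times as high as replicate 2. The log2 fold change was -4.80 ± 0.418 (SE), a 27.9-fold fall on this scale (adjusted p = 0.000431 by limma), and its 95% interval ran from -5.79 to -3.81. All 16 alternative settings kept the call, with log2 fold changes between -5.31 and -4.24.

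The hepatocyte markers moved in the same direction. Of 10 such markers, which include Alb, Ttr and Hnf4a, 9 were called lower (3 on the TPM scale described below), with a median log2 fold change of -0.97 against 0.01 over all genes tested, and their summed level was 59571 to 66785 FPKM in Wtapflox/flox against 27723 to 32014 FPKM in Wtap-HKO. No marker was at 0 in all 6 libraries. In bulk liver, fewer hepatocytes and less RNA per hepatocyte cannot be told apart. The mean of this sum was 2.04 times as high in Wtapflox/flox, against 24.8 times for the mean FPKM of Sult2a8. The part of the marker change in the values of the members was not tested.

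Sult5a1 (ENSMUSG00000000739, GRCm38 chromosome 8, 123140192 to 123158315, minus strand) also fell. It was at 4.57, 2.72 and 2.22 FPKM in Wtapflox/flox and at 0.453, 0.0210 and 0.125 FPKM in Wtap-HKO, where the last 3 values rest on 42, 2 and 11 reads. Every Wtap-HKO library was below every Wtapflox/flox library, although the Wtap-HKO libraries differed 21.6-fold among themselves. The log2 fold change was -3.16 ± 0.44 (adjusted p = 0.0021 by limma).

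The neighbours Sult1b1 and Sult1d1 fell by less. Sult1b1 (ENSMUSG00000029269), which acts on thyroid hormones and small phenols, was at 9.31, 7.30 and 8.73 FPKM in Wtapflox/flox and at 2.79, 3.15 and 3.23 FPKM in Wtap-HKO. Its log2 fold change was -1.40 ± 0.124 (adjusted p = 0.000461 by limma), and in Wtap-HKO it had the smallest spread of the 9 tested members, 1.16-fold from lowest to highest. Sult1d1 (ENSMUSG00000029273), a sulfotransferase of catecholamines in mice, was at 48.7, 47.4 and 57.8 FPKM against 30.6, 25.0 and 33.0 FPKM, and the groups did not overlap. Its log2 fold change was -0.80 ± 0.133 (adjusted p = 0.00421 by limma), and this call depends on the scaling, as given below.

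Sult1a1 (ENSMUSG00000030711, GRCm38 chromosome 7, 126672865 to 126676432, minus strand) was not called on the deposited scale, but was on the TPM scale, as given below. It was at 173, 204 and 249 FPKM in Wtapflox/flox and at 160, 238 and 224 FPKM in Wtap-HKO, ranges that overlap almost entirely. The log2 fold change was -0.01 ± 0.196 with an adjusted p of 0.96 by limma. The 95% interval on this scale ran from -0.48 to 0.45.

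Among members read in every library, Sult1c2 alone was called higher on the deposited scale. This SULT1 enzyme gene (ENSMUSG00000023122, GRCm38 chromosome 17, 53829637 to 53846339, minus strand) was at 1.67, 1.92 and 2.66 FPKM in Wtapflox/flox and at 5.42, 9.54 and 7.48 FPKM in Wtap-HKO. No library of one group reached into the other, and the log2 fold change was 1.74 ± 0.242 (3.34-fold, adjusted p = 0.0021 by limma). All 16 alternatives kept this call too.

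Sult1e1 (ENSMUSG00000029272), the oestrogen sulfotransferase gene, had 0, 7 and 3 reads in the Wtapflox/flox libraries (0, 0.398 and 0.175 FPKM). In the Wtap-HKO libraries it had 47, 76 and 135 reads (1.80, 2.84 and 5.46 FPKM). Every Wtap-HKO library was thus above every control, and the log2 fold change was 3.20 ± 0.505 (adjusted p = 0.00334 by limma). Sult1e1 passed the minimum through its Wtap-HKO level alone and had to differ, so this p adds no support.

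Sult2a2 (ENSMUSG00000070811) and Sult2a1 (ENSMUSG00000078798) encode hydroxysteroid sulfotransferases, which act on dehydroepiandrosterone and bile acids. Neither had a read in any Wtapflox/flox library, while Sult2a2 had 108, 54 and 95 reads (6.95, 3.38 and 6.44 FPKM) in the Wtap-HKO libraries. Against a floor of 3 reads over the control group this was at least 56.2-fold higher. Sult2a1 had 44, 6 and 23 reads (2.06, 0.273 and 1.13 FPKM) and was at least 16.0-fold higher, or at least 9.54-fold without Wtap-HKO replicate 1. Both genes were highest in Wtap-HKO replicate 1 and lowest in replicate 2. The adjusted p by limma was 0.00017 for Sult2a2 and 0.0127 for Sult2a1, where the latter was 0.0525 without Wtap-HKO replicate 3, so that the Sult2a1 call was lost. Without Wtap-HKO replicate 2 the fitted log2 fold change of Sult2a1 rose from 2.49 to 3.12. Both genes passed the minimum through their Wtap-HKO level alone and had to differ, so these p values add no support. Given the shared stretches, single values of both genes are uncertain, as given above.

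Sult3a1 (ENSMUSG00000069668, GRCm38 chromosome 10, 33857721 to 33879532, plus strand), an amine sulfotransferase gene of mice, had 1 read in each of Wtap-HKO replicates 2 and 3 and none in the other 4 libraries. No difference was detectable at this depth.

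**Figure D2:**
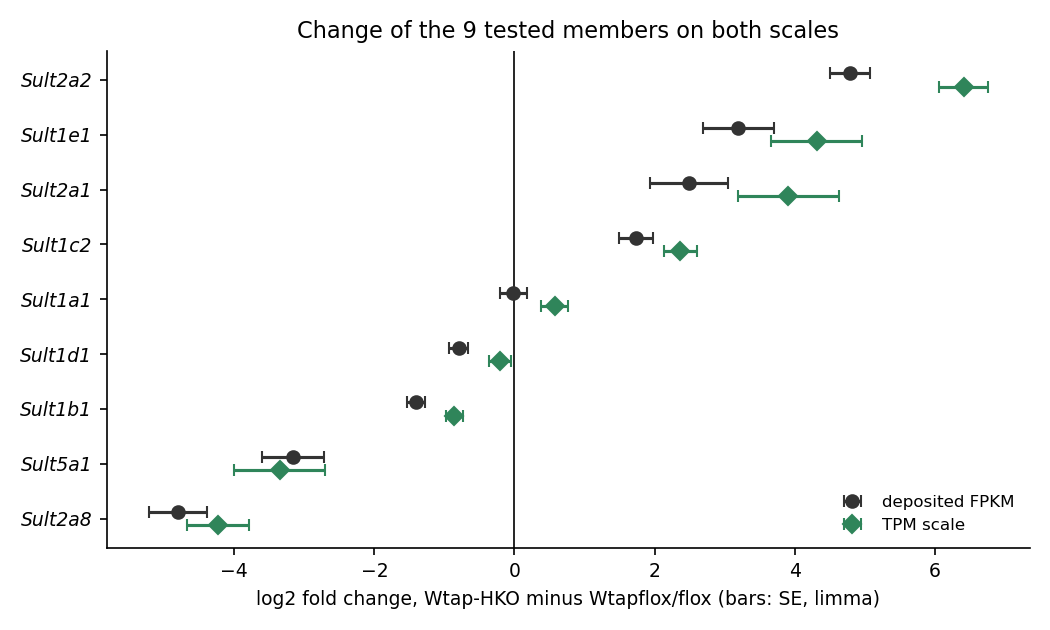
Log2 fold change (Wtap-HKO minus Wtapflox/flox) of the 9 tested members with its SE from limma, on the deposited FPKM (black circles) and after rescaling every library to the same sum (green diamonds, TPM scale). Sult1a1 moves from -0.01 to 0.57 and Sult1d1 from -0.80 to -0.21, and the other 7 members keep their call.

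These calls were next set against the scaling of the files. The depth divisor behind the deposited FPKM was 1.44 times as large, relative to the reads summed over genes, in Wtap-HKO as in Wtapflox/flox. Sult1a1 accordingly had 12925 reads in the 3 control libraries and 19523 in the 3 Wtap-HKO libraries at nearly the same FPKM. When each library was rescaled to the same sum (TPM), the median of all genes tested moved from 0.01 to 0.56 on the log2 scale, and 48.8% of genes were called higher and 6.02% lower. On that scale Sult1a1 was called higher (log2 fold change 0.57, adjusted p = 0.0371 by limma), about as much as the median gene, and Sult1d1 was not called (-0.21, adjusted p = 0.291). Sult2a8 (-4.24), Sult5a1 (-3.35) and Sult1b1 (-0.86) remained lower, and Sult1c2 (2.37), Sult1e1 (4.31), Sult2a1 (3.91) and Sult2a2 (6.41) remained higher.

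Shares within a library do not depend on that scaling, so the make-up of the family was described by the share of each gene in the summed FPKM of the 10 members. Sult2a8 held 55.1%, 47.7% and 48.5% in Wtapflox/flox and 8.67%, 1.98% and 2.78% in Wtap-HKO. Sult1a1 held 32.7%, 40.5% and 40.0% against 69.5%, 82.7% and 77.5%. The order of both genes was thus turned in every library, with 1.36 ± 0.283 FPKM of Sult2a8 for each FPKM of Sult1a1 in Wtapflox/flox and 0.0614 ± 0.055 in Wtap-HKO. The share of Sult1d1 was 9.3% ± 0.113 and 11.1% ± 2.34, ranges that overlap. Sult1c2, Sult1e1, Sult2a1, Sult2a2 and Sult3a1 together held 0.315%, 0.46% and 0.456% of the sum in the control libraries and 7.06%, 5.57% and 7.12% in Wtap-HKO. In Wtap-HKO, Sult1c2 held 2.75% ± 0.495 and Sult2a2 2.14% ± 0.928. The summed level of the 10 genes was 530, 503 and 622 FPKM in Wtapflox/flox and 230, 288 and 289 FPKM in Wtap-HKO, and on the TPM scale 1159 ± 154 and 847 ± 88.9, so that the groups did not overlap on either scale.

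**Figure D3:**
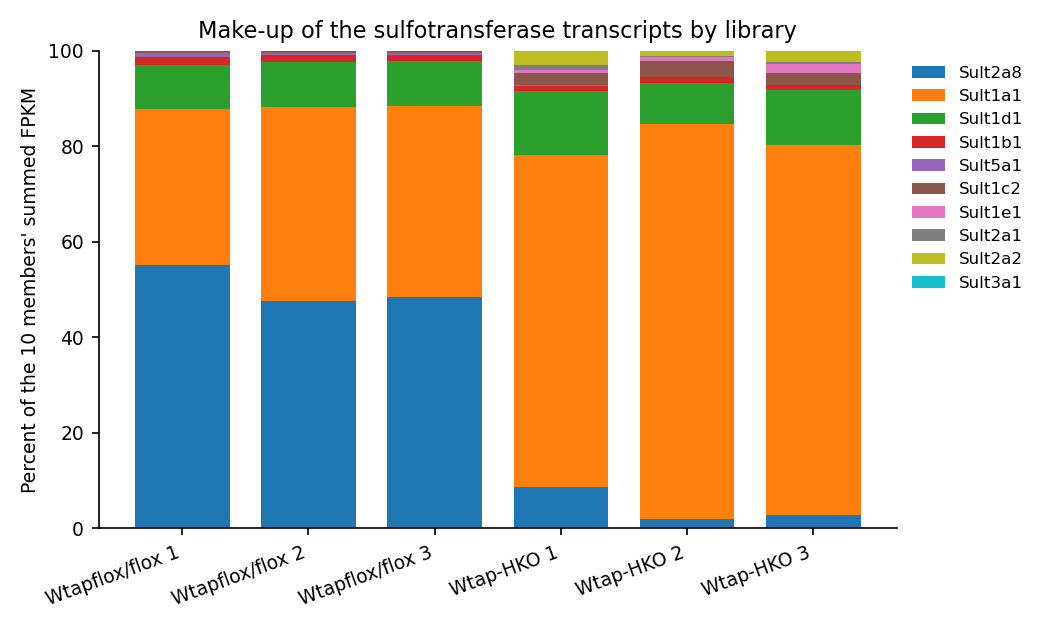
Share of each gene in the summed FPKM of the 10 members (percent, stacked to 100) in each of the 6 libraries. Sult2a8 (blue) makes up 47.7% to 55.1% of the control libraries and 1.98% to 8.67% of the Wtap-HKO libraries, where Sult1a1 (orange) takes 69.5% or more.

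Genes of 1 cluster were called in opposite directions. On chromosome 5 (GRCm38, minus strand), Sult1b1 (87513339 to 87538195), Sult1d1 (87554645 to 87569027) and Sult1e1 (87575969 to 87591594) lie within 78.3 kb. Sult1b1 and Sult1d1 were called lower, the latter on the deposited scale alone, while Sult1e1 was called higher. On chromosome 7 the 8 Sult2a genes lie within 870.3 kb (13623967 to 14494230). Sult2a2 (13733505 to 13779636, plus strand) and Sult2a1 (13796246 to 13837409, minus strand) rose, and Sult2a8 (14410686 to 14446769, minus strand) fell. Between them Sult2a4, Sult2a3 and Sult2a6 had no read in any library. Sult2a5, at the proximal end, had no read in Wtapflox/flox and 26, 4 and 7 reads in Wtap-HKO (1.18, 0.177 and 0.336 FPKM), at least 8.09-fold higher against the same floor. Of these 37 reads 26 came from Wtap-HKO replicate 1, without which the bound was 3.62-fold. Like Sult2a1 and Sult2a2 it passed the minimum through Wtap-HKO alone and had to differ. Its adjusted p was 0.0357 by limma, and the call was lost without any 1 of 5 libraries (all 3 Wtapflox/flox replicates, Wtap-HKO replicate 1 and Wtap-HKO replicate 3, adjusted p from 0.0531 to 0.0828) and with a pseudocount of 1 (0.0777). Sult2a7, next to Sult2a8, had 1 to 8 reads in each library, and its log2 fold change of -0.58 had a 95% interval of -1.59 to 0.44.

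**Figure D4:**
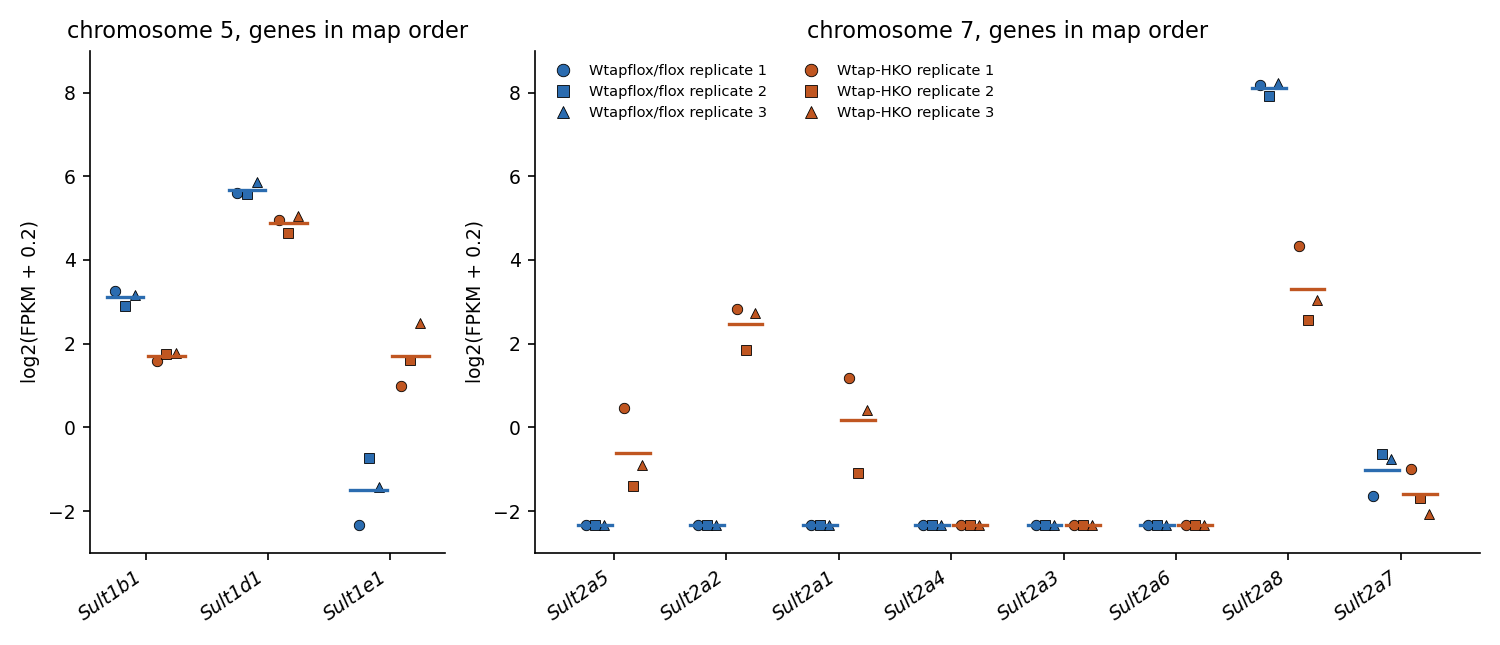
Level as log2(FPKM + 0.2) of the 3 genes on chromosome 5 and the 8 Sult2a genes on chromosome 7, in map order and not to scale along the chromosome, in Wtapflox/flox (blue) and Wtap-HKO (orange) libraries with lines at the group means. Sult1e1 rises beside the falling Sult1b1 and Sult1d1 (the latter on the deposited scale alone), and Sult2a5, Sult2a2 and Sult2a1 at one end of the chromosome 7 block are higher in Wtap-HKO while Sult2a8 is lower.

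The family holds 11 more protein-coding genes, and none of them was a large part of the liver's sulfotransferase transcripts. Their highest value in any library was the 1.18 FPKM of Sult2a5. Of these 11, Sult2a5 and Sult2a7 were tested and 5 (Sult1c1, Sult2a3, Sult2a4, Sult2a6 and Sult3a2) had no read at all. Sult2b1, Sult4a1, Sult6b1 and Sult6b2 had at most 8 reads in a library. The 6 pseudogenes of the family had 1 read in total.

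The promoters of the members were then compared, since members of 1 cluster were called in opposite directions. RefSeq windows on GRCm38.p6, from 250 bases before to 50 after a start site, matched 8 of the 10 members (all but Sult2a1 and Sult2a2) at 10 start sites. The upstream 250 bases are shown for the second annotated Sult2a8 start (minus strand, chr7:14438552-14438801), for Sult1b1 (minus strand, chr5:87538196-87538445), which fell, and for Sult1e1 (minus strand, chr5:87591612-87591861), which rose. Capitals mark the half-site spellings AGGTCA and AGTTCA, which nuclear receptors are known to bind, on either strand. The printed Sult2a8 start lies 8218 bases into the gene. The window at the first Sult2a8 start (14446587), 182 bases into the gene, held neither spelling.
Sult2a8: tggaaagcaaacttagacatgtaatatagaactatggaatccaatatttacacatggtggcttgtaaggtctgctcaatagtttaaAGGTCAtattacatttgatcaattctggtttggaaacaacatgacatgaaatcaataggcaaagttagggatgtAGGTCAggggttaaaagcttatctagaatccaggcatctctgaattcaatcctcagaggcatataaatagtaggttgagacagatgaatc
Sult1b1: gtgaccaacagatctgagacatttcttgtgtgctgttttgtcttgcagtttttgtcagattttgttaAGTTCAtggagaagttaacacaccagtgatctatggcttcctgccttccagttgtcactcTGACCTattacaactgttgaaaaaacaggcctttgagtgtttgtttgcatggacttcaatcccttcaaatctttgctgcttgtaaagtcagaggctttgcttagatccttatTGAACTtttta
Sult1e1: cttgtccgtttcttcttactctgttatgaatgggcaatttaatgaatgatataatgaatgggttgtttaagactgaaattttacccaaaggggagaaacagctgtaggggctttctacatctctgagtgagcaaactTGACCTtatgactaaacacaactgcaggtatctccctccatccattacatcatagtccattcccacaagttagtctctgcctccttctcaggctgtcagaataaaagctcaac
AGGTCA, on either strand, occurred in the windows of Sult1b1, Sult1e1 and Sult2a8 (3 of 10 windows), against 16.3% of the 32851 promoters in the table. AGTTCA occurred in those of Sult1b1, Sult1d1 and Sult2a8 (14.0% of all promoters). Sult1b1, which fell, and Sult1e1, which rose, thus both held an AGGTCA match in reverse orientation, at -123 and -113 from their start sites. TGACTCA, the AP-1 spelling, occurred in 1 of the 10 windows (5.2% of all promoters), at the second Sult1b1 start. The STAT spelling TTCNNNGAA was found at Sult3a1 (8.3%), the HNF1 half-site GTTAAT at Sult1a1 and Sult1d1 (7.1%), and the C/EBP spelling TTGCNNAA at Sult1c2 and Sult2a8 (10.8%). The TATA box spelling was found at Sult1d1 and Sult2a8 (13.6%). All were searched on both strands, STAT and C/EBP spellings with any base at N, and a match describes letters and is not a bound site. Which start sites these livers used is not given by values per gene.

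Sulfation also needs the donor PAPS, and 18 genes of its supply were examined. Of these, 15 were tested, of which 1 was called higher and 6 lower, with a median log2 fold change of -0.32. On the TPM scale 7 were called higher and 2 lower, so the balance of these calls turned with the scaling. The PAPS synthases parted. Papss2, the main one in liver, went from 55.7 ± 3.26 to 37.9 ± 2.34 FPKM and was called lower (log2 fold change -0.55, adjusted p = 0.00348 by limma, but 0.04 and not called on the TPM scale). Papss1 went from 3.87 ± 0.813 to 6.93 ± 0.172 FPKM and was called higher on both scales (0.83, adjusted p = 0.00573). Bpnt1, the cytosolic phosphatase that removes the by-product PAP, was at 31.8 ± 2.36 and 25.2 ± 1.59 FPKM. Its call as lower (-0.34, adjusted p = 0.0281) turned to 0.25 and no call on the TPM scale, and was lost without any 1 of 4 libraries (replicates 1 and 2 of Wtapflox/flox, replicates 2 and 3 of Wtap-HKO), with an adjusted p of up to 0.0884.

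Genes that make sulfate from cysteine included the firmest falls of this list. Cdo1, cysteine dioxygenase, was at 778 ± 24.1 FPKM in Wtapflox/flox and 327 ± 20.5 FPKM in Wtap-HKO (-1.25 on the log2 scale, adjusted p = 0.000382 by limma). Csad, which turns its product towards taurine, went from 80.8 ± 16.4 to 36.3 ± 7.03 FPKM (-1.14, adjusted p = 0.00437). Both remained lower on the TPM scale, at -0.66 and -0.56. Mpst, a mercaptopyruvate sulfurtransferase (-0.86), and Slc26a1, a sulfate anion exchanger of hepatocytes (-0.86), were called lower on the deposited scale but not on the TPM scale, at -0.27 each. Suox, sulfite oxidase, was not called (-0.44, and 0.14 on the TPM scale), although without Wtap-HKO replicate 2 it was called lower (-0.61, adjusted p = 0.0235 by limma). Ethe1, a sulfur dioxygenase, was not called either (-0.32, and 0.27 on the TPM scale). Tst (-0.02) and Sqor (-0.01) of sulfide oxidation were not called, and neither were Impad1, the Golgi PAP phosphatase (0.11), the Golgi PAPS carriers Slc35b2 (0.25) and Slc35b3 (0.10) and the sulfate carrier Slc26a2 (0.36). These 6 were called higher on the TPM scale, Slc35b2 also with median-of-ratios scaling (adjusted p = 0.0495) and by voom (0.0461), and Slc26a2 also by voom (0.0448). Slc13a1 and Slc13a4 were below the minimum, and Gadl1 was listed at 0 in every library.

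The enzymes that sulfate sugars and lipids in the Golgi form a separate family. Of 35 genes listed, 17 were tested, 7 were called higher and 2 lower, with a median log2 fold change of 0.64. Gal3st1, which makes sulfatide, rose from 0.546 ± 0.202 to 10.9 ± 1.78 FPKM (3.93 on the log2 scale, adjusted p = 0.000159 by limma). Chst14, which sulfates dermatan, went from 0.634 ± 0.123 to 5.41 ± 0.583 FPKM (2.75), and Hs3st6, a heparan sulfate 3-O-sulfotransferase, from 0.738 ± 0.287 to 2.07 ± 0.174 FPKM (1.32). Among 11 sulfatase genes tested, which remove sulfate, 4 were called higher and 1 lower, with a median of 0.36. Sulf2, the extracellular heparan endosulfatase, rose from 2.74 ± 0.94 to 10.8 ± 0.644 FPKM, and the lysosomal Galns and Arsb rose by 1.59 and 0.87 on the log2 scale. By limma on the TPM scale 0 genes of either list were called lower, also at an unadjusted p under 0.05, and 11 and 10 were called higher, where voom on the reads called 2 and 1 lower. Over all genes tested 48.8% were called higher on the TPM scale.

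Enzymes of steroid conjugation and turnover were mostly called lower. Of 30 tested, 24 were called lower and 1 higher (17 and 4 on the TPM scale), with a median log2 fold change of -1.29. Hsd3b5, a 3-beta-hydroxysteroid dehydrogenase gene, went from 103 ± 47.6 to 0.184 ± 0.0999 FPKM, and the glucuronosyltransferases Ugt2b38 and Ugt3a1 were lower by -2.42 and -2.33 on the log2 scale. Among 28 factors and receptors known to act on sulfotransferase genes, 26 were tested, 14 were called lower and 1 higher, with a median log2 fold change of -0.53 (5 and 5 on the TPM scale, where the median turned to 0.05). The nuclear receptor Nr1i3 (CAR) went from 22.8 ± 2.28 to 3.35 ± 0.489 FPKM, Ppara from 77.1 ± 5.79 to 26.0 ± 2.65 FPKM, and the growth hormone receptor gene Ghr from 70.4 ± 6.21 to 24.2 ± 1.78 FPKM. All 3 were called lower on both scales.

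Several Sult genes are known to differ between the sexes in mouse liver, and lists of sex-biased genes outside the family were set beside them. Of 34 male-predominant genes, 29 were called lower and 0 higher by limma (0 also at an unadjusted p under 0.05 and by voom), with a median log2 fold change of -3.43 (28 lower on the TPM scale). Of 25 female-predominant genes tested, 9 were called higher and 1 lower, with a median of 1.46 (11 and 1 on the TPM scale). Over all genes tested 19.5% were called higher, and 48.8% on the TPM scale, a share that the TPM count of this list did not exceed. Among the female-predominant genes, Hao2 rose from 0.0943 ± 0.0706 to 4.69 ± 3.56 FPKM. Hao2 passed the minimum through its Wtap-HKO level alone and had to differ, so its rise adds no support. Genes that pass in this way can only be higher, so the count and median of the female-predominant list describe it and add no support. Hamp2 was called higher (adjusted p = 0.0241 by limma), a call lost without Wtap-HKO replicate 2 (0.0794) or 3 (0.0825). The summed female-predominant level overlapped between groups, with 128, 781 and 1122 FPKM in Wtapflox/flox and 706, 1593 and 1079 FPKM in Wtap-HKO. In Wtap-HKO, Sult2a1, Sult2a2 and Sult2a5 were highest in replicate 1, Sult1e1 was highest in replicate 3, and the sum was highest in replicate 2. The part of sex-biased regulation in the members' values was not tested.

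The pattern of Sult1c2 and Sult2a8 over the 6 libraries was then compared with that of 10313 protein-coding genes outside the family, by the Euclidean distance of log2(FPKM + 0.2) after centring each gene on its Wtapflox/flox mean. The genes nearest to Sult1c2 were the chemokine gene Ccl6 (distance 0.33), Cpne8 (0.36) and Rpp38 (0.39). Ccl6 went from 7.18 ± 1.22 to 22.2 ± 6.7 FPKM. Nearest to Sult2a8 were Slc22a28, an organic anion transporter gene (0.62), Mup3, a major urinary protein gene (1.38), and Slco1a1, an organic anion uptake carrier (1.61). Slc22a28 had 13, 0 and 2 reads in Wtap-HKO, so its log2 fold change and its distance depended on the added 0.2 FPKM. Over the alternatives its log2 fold change ran from -6.68 to -2.74. Its mean FPKM was 54.1 times as high in Wtapflox/flox, against 24.8 times for Sult2a8. Slco1a1 was at 139 ± 2.87 FPKM in Wtapflox/flox and at 5.81 ± 2.8 FPKM in Wtap-HKO.

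Markers of the other liver cells were set beside the genes that rose. Of 6 cholangiocyte markers tested 4 were called higher (median log2 fold change 1.47), with a summed level of 40.1 to 64.1 FPKM in Wtapflox/flox and 77.0 to 266 FPKM in Wtap-HKO. Of 10 macrophage markers 7 were called higher (176 to 220 against 342 to 378 FPKM), of 8 stellate and myofibroblast markers 6 (30.4 to 40.4 against 59.7 to 157 FPKM), and of 4 neutrophil markers 3 (4.89 to 11.2 against 22.3 to 32.3 FPKM). Of 7 endothelial markers 2 were called higher (35.9 to 45.9 against 43.9 to 50.8 FPKM), of 6 T and NK cell markers 1 (1.87 to 3.43 against 3.5 to 4.68 FPKM), and of 3 B cell markers 0 (0.91 to 1.62 against 0.988 to 2.09 FPKM, 0 also at an unadjusted p under 0.05 and by voom). On the TPM scale the called markers numbered 5 of cholangiocytes, 10 of macrophages, 8 of stellate cells, 4 of neutrophils, 7 of endothelium, 2 of T and NK cells and 1 of B cells, all higher. On that scale 48.8% of all genes tested were called higher, a share that the T and NK cell and B cell counts did not exceed. No marker of these lists was at 0 in all 6 libraries. Sult2a1, Sult2a2 and Sult2a5 were highest in Wtap-HKO replicate 1 and lowest in replicate 2, as were the summed cholangiocyte (266, 77.0 and 197 FPKM in replicates 1, 2 and 3) and stellate markers (157, 59.7 and 114 FPKM). The macrophage (356, 378 and 342 FPKM), endothelial (49.2, 50.8 and 43.9 FPKM) and neutrophil sums (22.3, 26.1 and 32.3 FPKM) ran otherwise. Sult1c2 was lowest in replicate 1 and highest in replicate 2. Of the members called lower, Sult2a8 (19.9, 5.70 and 8.01 FPKM) and Sult5a1 (0.453, 0.0210 and 0.125 FPKM) were also highest in replicate 1 and lowest in replicate 2. So were the T and NK cell sum (4.68, 3.5 and 4.58 FPKM) and the B cell sum (2.09, 0.988 and 1.54 FPKM). Sult1b1 was lowest in replicate 1, and Sult1d1 was highest in replicate 3. The part of other cells in the rise of Sult1c2, Sult1e1, Sult2a1 and Sult2a2 was not tested.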

How the data were processed

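Bulk liver RNA of 3 Wtapflox/flox and 3 Wtap-HKO mice was sequenced in paired ends. The study describes 3 independent mice per group, and groups and replicate numbers follow the labels. According to the submitters' processing notes and the study's methods, reads were aligned to GRCm38.p6 with TopHat2 and counted with HTSeq 0.6.1. The authors deposited FPKM per gene; no source used here names the annotation release, strand setting or FPKM tool. Each deposited value equalled a whole read number divided by gene length and scaled by a library constant (100% within 0.01). Whole reads were rebuilt from this relation. Within a group, libraries differed beyond sampling noise (chi-square per degree of freedom 19.7 to 37.1).

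A count test was not used on FPKM. Values were taken as log2(FPKM + 0.2) and compared in limma 3.58.1 (eBayes with a trend, R 4.3.3), two-sided and without covariates, over the 16547 genes whose mean reached 0.2 FPKM. The model-based test was Benjamini-Hochberg adjusted. Folds of low genes are understated on this scale. If a group had no read, the fold is a bound against 3 reads in that group together, which covers counting error only. Alternatives were other pseudocounts (0.05 and 1) and minimums, TPM and median-of-ratios scaling, no trend, a replicate block, protein-coding genes alone, limma voom on rebuilt reads and leaving out each library. Scripts were tested on simulated data. Sequences were taken from GENCODE M21 and RefSeq tables with Python 3.

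All 10 members, genes of the PAPS list, and in other lists the 3 most changed called genes at a mean level of 1 FPKM or more were to be named; of the 53 genes this gives, those of the cell marker lists and some others stand in counts alone. Members and lists were chosen with earlier results of these data known.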

Additional observations from a re-analysis of the deposited data

How the results depend on the processing

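Of the 8 called members, Sult1b1, Sult1c2, Sult1e1, Sult2a2, Sult2a8 and Sult5a1 kept direction and call under all 16 alternatives. Sult1e1 and Sult2a2 passed the minimum through Wtap-HKO alone and had to differ, so their kept calls add no support. Sult1d1 lost its call on the TPM scale, and Sult2a1 without Wtap-HKO replicate 3; Sult2a1 was below the minimum of 1 FPKM. The members called higher numbered 3 to 4 and those called lower 4 when 1 library was left out. Over all genes, 8074 were called higher and 996 lower on the TPM scale, and leaving out 1 library gave 2143 to 2978 higher and 2483 to 3090 lower. The log2 fold change of Sult1a1 turned to 0.57 on the TPM scale, 0.006 with median-of-ratios scaling and 0.021 with voom, and ran from -0.14 to 0.16 without 1 library. On the TPM scale Papss2 turned to 0.035, Bpnt1 to 0.25, Suox to 0.14, Ethe1 to 0.27, Tst to 0.57 and Sqor to 0.57. Tst turned to 0.013 with voom, Sqor to 0.006 with median-of-ratios scaling and 0.021 with voom. Without 1 library Slc35b3 ran from -0.003 to 0.20, Tst from -0.12 to 0.041 and Sqor from -0.11 to 0.12. The cause was not tested.

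With the replicate number as a block, 3057 genes were called higher and 3508 lower, and 4 members each way, as without the block; Ethe1 was called lower with the block alone (adjusted p = 0.0284). Samples that share a number had correlated deviations of 0.02, 0.04 and 0.06, and those with different numbers of -0.06 to 0.02. No strong pairing by number was seen, but correlations over all genes cannot decide whether a weak one exists.

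With 3 mice per group and values down to a few reads, the levels of Sult2a1, Sult2a5, Sult2a7 and Sult3a1 rest on counts too low for a firm size of change. Deletion of exon 4 could not be checked from values per gene.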
